A study of Mus musculus with 4 samples.

Results

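The endothelium of the brain and its barrier were followed in newborn mouse brain through 10 genes: the tight junction genes Cldn5, Ocln and Tjp1, the transporter genes Slc2a1, Abcb1a and Mfsd2a, the endothelial adhesion and receptor genes Pecam1, Cdh5 and Kdr, and Pdgfrb, the receptor gene of pericytes. Their probes were found by the RefSeq accession printed for each probe of the array, whatever their signal. They are 10 of the 20660 named genes with a probe, and have 12 of the 55681 probes of the array, 2 each for Ocln and Kdr and 1 for each of the other genes. Of these, 11 were well above background on every array and 1, the second Ocln probe, on none. No measured value entered this choice of probes, though the 10 genes were chosen with earlier results of these data known.

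Endothelial cells of the brain are sealed to each other by tight junctions, in which claudins and occludin span the membrane and are tied to the cytoskeleton by zonula occludens proteins. Few solutes pass between the cells, so that nutrients enter through carriers and many lipophilic compounds are pumped back to the blood. In the mouse, vessels grow into the neural tube from mid-gestation, driven by vascular endothelial growth factor (VEGF) and its receptor and by Wnt signals, and the barrier closes before birth with the help of pericytes.

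Whole brains were taken on postnatal day 1 from male and female offspring of C57BL/6J dams, and no transgene or targeted allele is named for any group. Dams received 25 μL intratracheally, either of a titanium dioxide nanoparticle suspension giving 100 μg per mouse (TiO2-H, 6 dams) or of vehicle (Sham, 5 dams), which was that suspension with its particles removed by centrifugation and filtration. The labels disagree on the day of administration, gestational day 10.5 in the protocol and 14 in the sample descriptions. For each exposure and sex, RNA of 2 offspring per dam was combined to 45 μg and hybridised to a single one-color array, so that no animal was measured on its own. The male and female pools of an exposure came from the same dams. Whether the level of the vascular mRNAs differed after maternal exposure could thus be asked only between 2 TiO2-H pools and 2 Sham pools.

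Between 56.2% and 61.2% of the spots of an array were well above background, and no spot was saturated. The percentile by which each array was scaled, the 75th of its processed signals, was 810 (Sham male), 795 (Sham female), 867 (labelled TiO2-H male) and 871 (labelled TiO2-H female). The sex labels of the TiO2-H arrays went against the sex-linked transcripts. Xist, which coats the inactive X chromosome, gave signals of 276 in the Sham female pool and 347 in the one labelled TiO2-H male, and was not above background elsewhere. Of the Y-linked genes, Eif2s3y, a translation factor gene, gave 3519 for Sham male, 419 for Sham female and 4345 under the TiO2-H female label, and was not above background under the TiO2-H male label. Ddx3y, which encodes an RNA helicase, gave 1418, 142 and 1783 in the same order. Eif2s3y and Ddx3y were thus also well above background in the Sham female pool, though far lower than in Sham male, and the source of that signal was not tested. Uty, a histone demethylase gene, was detected in those pools that had high Eif2s3y, Sham male and the one labelled TiO2-H female, and Kdm5d, another such gene, in no pool. The test of both TiO2-H pools against both Sham pools is the same whichever way the TiO2-H labels are read. All 4 arrays were on 1 slide, both Sham arrays in 1 row and both TiO2-H arrays in the other, so that exposure, litters and row of the slide cannot be told apart.

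No probe of the 10 genes passed the test between the exposures after adjustment for all 35625 probes tested. The adjusted p (limma, Benjamini-Hochberg) ran from 0.351 to 0.975 over the 11 probes tested, and 0% of all probes passed 0.05, the lowest adjusted p of any probe being 0.311. At an unadjusted p under 0.05 (limma) stood 2 probes, 1 of Kdr and the one of Cldn5, both higher in TiO2-H, beside 8.56% of all probes higher and 5.39% lower at that level. In 4 probes both TiO2-H arrays lay above both Sham arrays and in 2 both lay below, beside 26.3% and 26.9% of all probes. The median difference of the 11 probes was 0.09 on the log2 scale and that of all probes 0.0006, and without regard to sign the medians were 0.10 and 0.11. With 2 pools against 2, an exact permutation test of a single probe (two-sided) cannot go below p = 0.333.

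For the promoters, 7 of the 10 genes had a window in the promoter table used here, made from RefSeq on GRCm38.p6 (8 windows, 2 of them for Ocln). Pecam1, Cdh5 and Pdgfrb had no window in that table. A window here is the 250 bases before the transcription start. Those of Kdr (chr5:75978456-75978705, minus strand) and Cldn5 (chr16:18776597-18776846, plus strand) are shown, as the genes with a probe at an unadjusted p under 0.05. Capitals mark matches to the GC box GGGCGG on either strand, the sequence bound by Sp1 family factors.
Kdr: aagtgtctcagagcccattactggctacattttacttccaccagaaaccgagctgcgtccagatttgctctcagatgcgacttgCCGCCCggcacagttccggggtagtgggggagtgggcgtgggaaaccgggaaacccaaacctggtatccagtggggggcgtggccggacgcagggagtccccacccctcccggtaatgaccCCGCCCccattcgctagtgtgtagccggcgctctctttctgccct
Cldn5: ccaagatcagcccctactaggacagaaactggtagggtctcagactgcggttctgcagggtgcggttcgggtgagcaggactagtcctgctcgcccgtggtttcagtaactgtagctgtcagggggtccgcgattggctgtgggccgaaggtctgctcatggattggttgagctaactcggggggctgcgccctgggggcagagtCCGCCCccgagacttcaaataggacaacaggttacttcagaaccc

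The window of Kdr holds 2 GC boxes and that of Cldn5 1, and they have a GC content of 61.6% and 59.6% with 16 and 12 CpG dinucleotides. Over all 32851 windows of the same length, 32.7% hold a GC box, the median GC content is 52.4%, and the median number of CpG is 6. Slc2a1 and Tjp1 had 2 GC boxes each, both windows of Ocln 1, and Mfsd2a and Abcb1a 0. AGGAAG, a longer form of the ETS core GGAA, was found in 29.5% of all windows on either strand. Among the windows of these genes it was matched only in that of Abcb1a, at 2 places. GGAA in other surroundings was not counted, and it also occurs in the Kdr window shown. CTTTGA, a core of TCF/LEF sites found in 13.8% of all windows, was matched at 2 places in Abcb1a and at 1 in Mfsd2a. ACGTG, a form of the hypoxia core, was found in 16.6% of all windows and matched at 2 places in Mfsd2a and 1 in Slc2a1. The other form, GCGTG, was not counted, and it occurs in the Kdr window shown. Abcb1a stood apart by its lack of CpG (0) and its GC content of 40.4%. A match describes letters only, and these arrays did not measure binding or methylation.

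Values of a probe are given in the order Sham male, Sham female, labelled TiO2-H male, labelled TiO2-H female. The level of a probe is its scaled signal, the processed signal divided by the 75th percentile of its array, and a difference is the mean log2 scaled signal of the TiO2-H arrays minus that of the Sham arrays with its standard error (SE, limma, 2 arrays per exposure). Levels of different probes are not set against each other, since probes differ in how strongly they bind. In brain homogenate, fewer vascular cells and less RNA per vascular cell cannot be told apart.

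**Figure D1:**
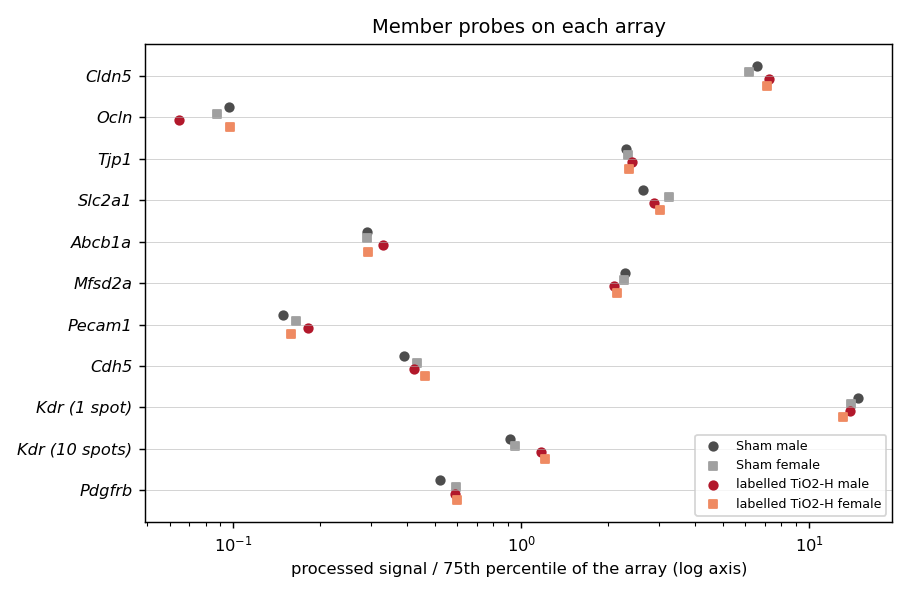
Scaled signal (processed signal over the 75th percentile of the array, log axis) of the 11 probes well above background on all 4 arrays; each symbol is 1 array. The 4 arrays lie close together for each probe, the widest ranges being those of Ocln and of the Kdr probe with 10 spots.

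Among the tight junction genes, Cldn5 was the only one with an unadjusted p under 0.05. Cldn5 encodes claudin 5, the main claudin of brain endothelium, and its scaled signal was 6.59 and 6.19 in the Sham pools, and 7.23 and 7.15 in the TiO2-H pools. Both TiO2-H arrays were above both Sham arrays. The difference was 0.17 ± 0.05 (SE), a ratio of 1.13 with a 95% interval of 1.01 to 1.26, and its unadjusted p was 0.044 and adjusted p 0.356 (limma). The Sham arrays differed from each other by 0.09 on the log2 scale and the TiO2-H arrays by 0.02. Each time 1 array was left out, the unadjusted p of Cldn5 was above 0.05, the highest being 0.155 without the array labelled TiO2-H male.

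Ocln encodes occludin, a membrane protein of the tight junction strands. Scaled signals of its brighter probe were 0.0964 and 0.088 in the Sham pools and 0.0647 and 0.0974 in the TiO2-H pools. The array labelled TiO2-H male was thus the lowest of the 4 and the other TiO2-H array the highest. At -0.21 ± 0.24 (SE, adjusted p = 0.678, limma), the difference was smaller than the gap of 0.59 between the TiO2-H arrays, and without the array labelled TiO2-H male it was 0.08. The interval of the ratio, 0.519 to 1.43, was the widest of the 11. This probe was among the dim ones, with processed signals of 56.2 to 84.8, where the lowest signals well above background were 23.3 to 31.7.

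Tjp1 encodes ZO-1, the scaffold between the strands and actin. Its scaled signal was 2.32 and 2.35 in the Sham pools and 2.42 and 2.37 in the TiO2-H pools. Although the TiO2-H arrays were both higher, the difference was 0.04 ± 0.04 (SE, adjusted p = 0.679, limma), and its interval of 0.938 to 1.12 as a ratio holds no change of over 1.5-fold.

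The transporter genes showed small differences of both signs. Slc2a1 encodes GLUT1, the glucose carrier of the barrier, and had scaled signals of 2.65 and 3.27 in the Sham pools and 2.89 and 3.03 in the TiO2-H pools. Both TiO2-H arrays lay between the Sham arrays. The difference was 0.01 ± 0.13 (SE, adjusted p = 0.975, limma), with an interval of 0.767 to 1.32 as a ratio. It was -0.14 without the Sham male array and 0.16 without the Sham female array.

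Abcb1a encodes the P-glycoprotein of mouse brain capillaries, an efflux pump of many drugs. Scaled signals were 0.29 and 0.29 in the Sham pools and 0.331 and 0.294 in the TiO2-H pools, so that the difference of 0.10 ± 0.08 (SE, adjusted p = 0.554, limma) came mostly from the array labelled TiO2-H male and was 0.02 without it. With normexp background correction the Abcb1a difference was 0.01. Mfsd2a, which encodes a carrier of lysophospholipids with docosahexaenoic acid and restrains vesicle transport across the endothelium, had scaled signals of 2.30 and 2.27 in the Sham pools and 2.09 and 2.16 in the TiO2-H pools. Both TiO2-H arrays were below both Sham arrays, by a difference of -0.10 ± 0.04 (SE, unadjusted p = 0.093 and adjusted p = 0.398, limma). The sign for Mfsd2a depended on the scaling: without any scaling of the arrays the difference was 0.01.

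Among the adhesion molecules, neither gene had groups that did not overlap. Pecam1 encodes CD31, an adhesion molecule of endothelial contacts that platelets and leukocytes also carry, and was measured by 2 spots. Its scaled signal was 0.148 and 0.165 in the Sham pools and 0.182 and 0.159 in the TiO2-H pools, a difference of 0.12 ± 0.10 (SE, adjusted p = 0.604, limma) that ran from 0.02 without the array labelled TiO2-H male to 0.21 without the one labelled TiO2-H female, and was 0.04 without Sham male. Cdh5 encodes VE-cadherin, the cadherin of endothelial adherens junctions. Scaled signals of 0.392 and 0.435 in the Sham pools stood beside 0.425 and 0.462 in the TiO2-H pools, and the difference was 0.10 ± 0.09 (SE, adjusted p = 0.584, limma). For Cdh5, the array labelled TiO2-H male was below the Sham female array, and the difference was 0.03 without the Sham male array.

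The 2 probes of Kdr, the gene of VEGF receptor 2, differed in sign. Both carry the same RefSeq accession, NM_010612. The probe printed in 10 spots had scaled signals of 0.915 and 0.954 in the Sham pools and 1.17 and 1.21 in the TiO2-H pools, both above both Sham values. At 0.35 ± 0.05 (SE), its difference was the largest of the 11 probes, a ratio of 1.27 with an interval of 1.15 to 1.42, with an unadjusted p of 0.0047 and an adjusted p of 0.351 (limma). The other probe, in 1 spot, had scaled signals of 14.8 and 13.9 in the Sham pools and 13.9 and 13.1 in the TiO2-H pools, both below both Sham values, though the array labelled TiO2-H male only just below the Sham female array. Its difference was -0.09 ± 0.06 (SE, adjusted p = 0.515, limma), and without scaling it was 0.02. A mean over both Kdr probes was 0.13. The files give no position of the probes within the transcript, and what sets the 2 probes apart was not tested.

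The 10 spots show how well 1 array measures that Kdr probe. Log2 scaled signals of single spots ran from -0.22 to -0.06 on the Sham male array and from -0.25 to 0.003 on the Sham female array. Under the TiO2-H male label they ran from 0.14 to 0.29, and under the TiO2-H female label from 0.23 to 0.33. No spot of a TiO2-H array was as low as any spot of a Sham array. Spots of 1 array had an SD of 0.03 to 0.08, beside a median SD of 0.06 to 0.07 for the 295 probes of the array that were printed 10 times and were well above background throughout. Spots of 1 array share their pool and labelling reaction, so that their spread is measurement error within an array and not variation between animals.

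**Figure D2:**
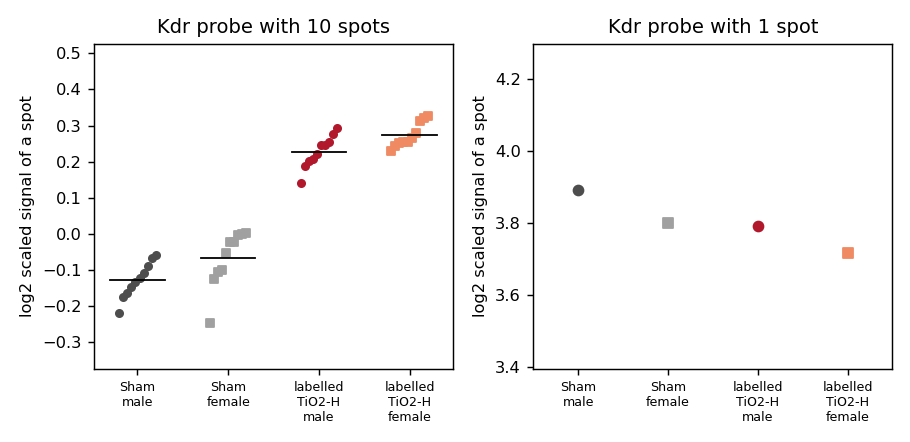
Log2 scaled signal of each spot of both Kdr probes on the 4 arrays, with the same span of the vertical axis in each panel; lines in the panel of the 10-spot probe are means of the spots. The spots of the 10-spot probe do not overlap between Sham and TiO2-H (difference 0.35), while the 1-spot probe runs the other way (difference -0.09).

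Pdgfrb, the gene through which pericytes receive platelet-derived growth factor, had scaled signals of 0.52 and 0.594 in the Sham pools and 0.59 and 0.596 in the TiO2-H pools. Only the Sham male array stood lower. The difference was 0.09 ± 0.08 (SE, adjusted p = 0.611, limma), and without the Sham male array it was -0.0008.

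**Figure D3:**
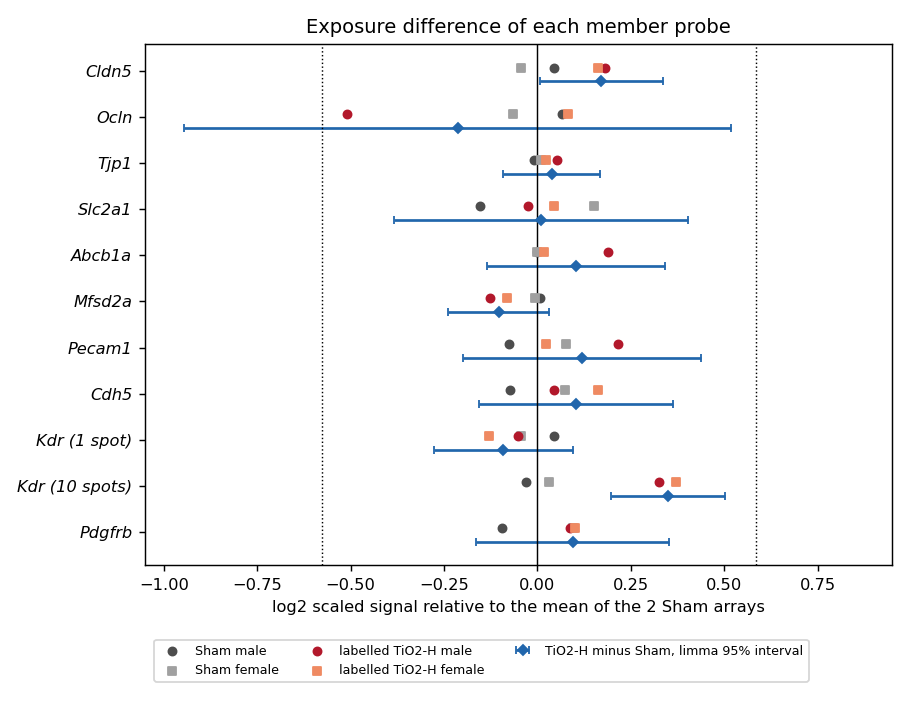
Log2 scaled signal of each array relative to the mean of the 2 Sham arrays (circles and squares), and the TiO2-H minus Sham difference with its 95% interval from limma (diamonds), for the 11 probes; dotted lines mark 1.5-fold and 0.67-fold. Of the 11 intervals, 10 lie wholly within 1.5-fold either way, the exception being that of Ocln, and the intervals of Cldn5 and of the 10-spot Kdr probe do not reach 0.

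In 10 of the 11 probes the 95% interval left out a 1.5-fold change in both directions, Ocln being the exception. These intervals rest on the spread between pools of the same litters and do not hold the variation between litters. In 6 of the 11 the difference between exposures was smaller than the larger of the gaps between 2 arrays of the same exposure. Without any scaling, 7 probes had both TiO2-H arrays above both Sham arrays and 0 had both below, beside 53.1% and 8.72% of all probes, and the median difference of all probes was then 0.12 on the log2 scale, the TiO2-H arrays being brighter as a whole.

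Within the sex labels, where each group is 1 array and no test is possible, no probe of the 10 genes reached the study's thresholds of 1.5-fold or 0.67-fold. Between the arrays labelled male, ratios of TiO2-H over Sham ran from 0.671 for Ocln to 1.28 for the 10-spot Kdr probe. Of all probes, 4.08% reached 1.5-fold upward and 3.28% reached 0.67-fold downward. Between the arrays labelled female, ratios ran from 0.927 for Slc2a1 to 1.27 for the 10-spot Kdr probe, beside 2.65% and 3.31% of all probes past the thresholds. Sham female over Sham male, a comparison without exposure, gave 0.912 for Ocln to 1.24 for Slc2a1, and 3.17% and 3.15% of all probes past 1.5-fold and 0.67-fold. The exposure ratio had the same direction under both labels in 8 of the 11 probes, 6 up and 2 down, and opposite directions for Ocln, Slc2a1 and Pecam1. These ratios follow the labels, which the sex-linked transcripts went against. With the TiO2-H arrays exchanged between the labels, no probe reached either threshold. Directions were then opposite for Ocln, Slc2a1, Cdh5 and Pdgfrb, and both up for Pecam1. Ocln was the closest to a threshold, with 0.671 under the male label and 1.11 under the female label.

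Other genes of the vessel and its barrier were read in 7 lists with 187 genes, of which 179 had a probe that could be tested, each gene by its brightest probe. These lists, and the cell type markers given further on, were chosen with earlier results of these data known. None passed an adjusted p under 0.05 (limma, lowest 0.351). At an unadjusted p under 0.05 stood 26 genes higher and 8 lower in TiO2-H, out of 179, beside 7.99% and 4.83% of all 16165 named genes. The 8 include Erg, which was detected only on the array labelled TiO2-H female and otherwise stood at the floor of each array, so that its order is that of the floors. In 75 genes (41.9%) both TiO2-H arrays lay above both Sham arrays and in 34 (19.0%) both lay below, beside 28.5% and 27.1% of all named genes. Over the 174 genes detected on all 4 arrays, a count added after the data were seen, 75 lay above and 33 below, and 26 and 7 were at an unadjusted p under 0.05 (limma). The split moved with the scaling: without it, the counts were 120 and 6, beside 61.3% and 6.40% of all named genes. The median difference of the 179 genes was 0.05 on the log2 scale and that of all named genes 0.004, while the 10 genes described above had a median of 0.07 by their brightest probes, which ran from 0.01 without the Sham male array to 0.12 without the Sham female array. No gene of the lists was past 1.5-fold in the same direction under both sex labels.

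**Figure D4:**
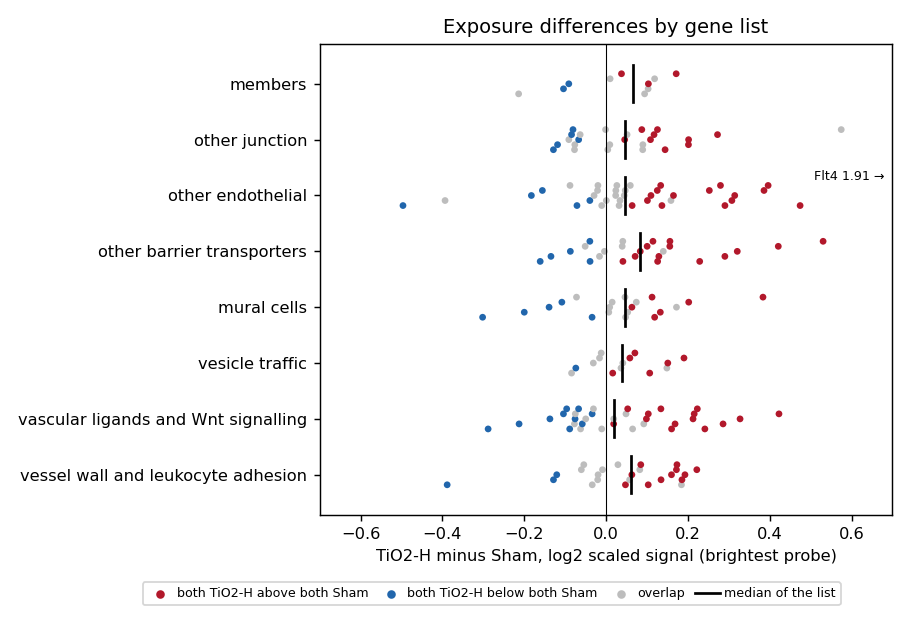
TiO2-H minus Sham difference (log2 scaled signal, brightest probe) of each gene in 8 lists; red and blue points are genes whose TiO2-H arrays both lie above or both below the Sham arrays, gray points overlap, and black bars are list medians. Medians lie between 0.02 and 0.08; Flt4, off the axis at 1.91, was above background on 1 array only.

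Of 25 further junction genes, 9 (36%) had both TiO2-H arrays above both Sham arrays and 5 (20%) both below, with a median difference of 0.05. Of all named genes, 28.5% lay above and 27.1% below. Magi1, a scaffold protein of junctions, had scaled signals of 5.83 and 6.18 in the Sham pools and 7.19 and 7.30 in the TiO2-H pools (difference 0.27 ± 0.05 SE, adjusted p = 0.351, limma), and its other probe gave 0.06. Pard3, a polarity protein that helps to set up junctions, differed by 0.20 ± 0.06 (SE, adjusted p = 0.353, limma), and its other probes by 0.22, 0.07 and 0.37. Magi3, related to Magi1, differed by 0.20 by its brightest probe and by -0.02 by the other. Cgnl1, which encodes paracingulin, was above background only on the array labelled TiO2-H male, and is named after its values were seen.

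Of 37 further endothelial genes, 15 had both TiO2-H arrays above both Sham arrays and 5 both below, and 8 and 3 were at an unadjusted p under 0.05 (limma). Without Erg and Flt4, the genes of this list not detected on all arrays, the counts were 15 and 4, and 8 and 2. Of the 37 genes, 40.5% lay above and 13.5% below, beside 28.5% and 27.1% of all named genes. At an unadjusted p under 0.05 (limma) stood 7.99% of all named genes higher and 4.83% lower. Mmrn2, which encodes a matrix protein of the endothelial surface, had scaled signals of 0.375 and 0.381 in the Sham pools and 0.51 and 0.539 in the TiO2-H pools. The difference of 0.47 ± 0.05 (SE, adjusted p = 0.351, limma) was well over the gaps between arrays of 1 exposure. Sox7, a transcription factor of endothelial cells, had 0.105 and 0.115 against 0.154 and 0.136 in the same order (0.40 ± 0.10 SE, adjusted p = 0.351, limma). Dll4, the Notch ligand of sprouting tip cells, ran the other way. Its scaled signals of 0.069 and 0.0759 in the Sham pools and 0.0531 and 0.0496 in the TiO2-H pools differed by -0.50 ± 0.08 (SE, adjusted p = 0.351, limma), at processed signals of only 43.1 to 60.4, and across the scalings and background corrections tried the difference of Dll4 ran from -0.56 to -0.07. The other VEGF receptor genes of the list, named here after their values were seen, were Flt1 with a difference of 0.31 (adjusted p = 0.351, limma) and Flt4. The probe of Flt4 was well above background only on the array labelled TiO2-H female.

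Of 25 further barrier transporter and receptor genes that could be tested, 14 (56%) had both TiO2-H arrays above both Sham arrays and 5 (20%) both below. The shares of all named genes were 28.5% and 27.1%. Their median difference, 0.08, was the highest of the 7 lists. Abcb1b, the paralog of Abcb1a, had scaled signals of 0.079 and 0.0871 in the Sham pools and 0.106 and 0.135 in the TiO2-H pools (0.53 ± 0.15 SE, adjusted p = 0.351, limma). The difference of Abcb1b ran from 0.34 to 0.64 across the scalings and background corrections tried, and was 0.36 without the array labelled TiO2-H female. Whether the probes of the 2 paralogs also bind each other's transcript is not known from the files. Slc38a5, a glutamine carrier, had 2.69 and 2.45 in the Sham pools and 3.25 and 3.62 in the TiO2-H pools (0.42 ± 0.09 SE, adjusted p = 0.351, limma). Insr, the insulin receptor gene, differed by 0.32 ± 0.20 by its brightest probe (SE, adjusted p = 0.503, limma) through 1 high array, labelled TiO2-H female at 0.559 against 0.368 to 0.394, and by 0.07 without it. Its other probes differed by 0.21 and -0.11.

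Of 20 mural cell genes that could be tested, 6 (30%) were above and 5 (25%) below without overlap, with a median of 0.05. These shares were near the 28.5% and 27.1% of all named genes. Abcc9, which encodes the sulfonylurea receptor subunit of pericyte potassium channels, had 0.138 and 0.141 in the Sham pools and 0.193 and 0.171 in the TiO2-H pools (0.38 ± 0.08 SE, adjusted p = 0.351, limma). Across the scalings and background corrections tried, the difference of Abcc9 ran from 0.14 to 0.50. Ndufa4l2, a mitochondrial protein gene enriched in pericytes, differed by 0.20 ± 0.06 (SE, adjusted p = 0.355, limma). Anpep, the aminopeptidase CD13, differed by -0.30 ± 0.22 (SE, adjusted p = 0.535, limma) through 1 high array, Sham male at 1.15 against 0.762 to 0.791 on the other three, and by -0.03 without it.

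Caveolar and vesicle genes showed 6 of 14 (42.9%) above and 1 (7.14%) below, with a median of 0.04, beside 28.5% and 27.1% of all named genes. Cav2, a caveolin, differed by 0.19 ± 0.05 by its brightest probe (SE, adjusted p = 0.351, limma) and by -0.18 by a dim one. Picalm, a clathrin adaptor, differed by 0.15 ± 0.08 (SE, adjusted p = 0.446, limma), and by 0.07 without the Sham male array. Cavin3, a caveolar coat protein gene, differed by 0.11 ± 0.06 (SE, adjusted p = 0.463, limma), and by 0.06 without the Sham female array. Of 34 genes of vascular ligands and Wnt signaling that could be tested, 14 (41.2%) were above and 10 (29.4%) below, with a median of 0.02. Apln, which encodes apelin, a peptide made by sprouting endothelium, had 0.249 and 0.242 in the Sham pools and 0.301 and 0.36 in the TiO2-H pools (0.42 ± 0.11 SE, adjusted p = 0.351, limma). Lef1, a transcription factor of Wnt signaling, was high on the array labelled TiO2-H female alone, at 0.725 against 0.469 to 0.499, and its difference of 0.33 ± 0.22 (SE, adjusted p = 0.512, limma) was 0.06 without that array. Gli1, a target of hedgehog signaling, differed by -0.29 ± 0.07 (SE, adjusted p = 0.351, limma).

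Among 24 genes of the vessel wall and of leukocyte adhesion that could be tested, 11 (45.8%) were above and 3 (12.5%) below, with a median of 0.06. Of all named genes, 28.5% and 27.1% were so. The basement membrane genes Hspg2 and Nid1, encoding perlecan and nidogen 1, differed by 0.22 ± 0.11 and 0.19 ± 0.07 (SE) by their brightest probes (adjusted p = 0.425 and 0.377, limma) and by 0.11 and 0.12 without the Sham male array, and Nid1 by -0.16 and 0.04 by its other probes. Ccl2, a chemokine gene that is raised in inflamed endothelium, differed by -0.39 ± 0.14 (SE, adjusted p = 0.364, limma), and by -0.25 without the Sham female array. Sele, encoding E-selectin, was among the 8 listed genes with no probe well above background on any array, with Itga5, Slc19a3, Ager, Pdgfd, Shh, Myh11 and Des.

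Summed scaled signals of cell type markers were compared on the same arrays. Since probes bind unequally, each sum mainly follows its brightest probes and does not speak for every marker of its list. The 10 endothelial markers, which include 4 of the genes above, summed to 31.0 to 32.1 in the Sham pools and 31.8 to 32.1 in the TiO2-H pools, and 4 were above and 2 below without overlap, 1 of them, Erg, above background on 1 array only. Their median difference was 0.11. The sum turned on the Kdr probe, a comparison added after the data were seen: with the 10-spot probe in place of the 1-spot probe it was 18.2 and 18.0 in the Sham pools against 19.1 and 20.2 in the TiO2-H pools, and without Kdr 17.3 and 17.0 against 18.0 and 19.0, neither with overlap. Pericyte and smooth muscle markers summed to 11.6 to 12.1 and 12.3 to 12.4, with 4 of 9 above and 0 below. The brightest of them, Vtn, at 4.84 to 5.06, overlapped between the exposures. Beside these counts of markers, 28.5% of all named genes lay above and 27.1% below without overlap. All defining endothelial markers were above background on all 4 arrays except Erg, as were those of pericytes except Myh11.

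Erythroid markers had the opposite order. The 4 erythroid markers that could be tested summed to 104 to 107 in the Sham pools and 87.9 to 88.4 in the TiO2-H pools, 3 of them below without overlap, with a difference of -0.27 for Hbb-bt and -0.25 for Hba-a1 (adjusted p = 0.351 for both, limma). Both are globin genes, and both probes were bright, with Hbb-bt between 31365 and 35714. The platelet and leukocyte markers, of which 2 of 4 could be tested, summed to 2.87 to 3.23 in the Sham and 3.04 to 3.13 in the TiO2-H pools. Microglial markers summed to 14.4 to 14.8 and 15.3 to 15.5, astrocyte and radial glia markers to 114 to 122 and 128 to 130, and meningeal and fibroblast markers to 26.4 to 27.1 and 28.2 to 29.0. Oligodendrocyte lineage markers summed to 18.1 to 18.4 and 19.4 to 19.9, neuronal markers to 350 to 353 and 347 to 362, and choroid plexus markers to 89.6 to 92.1 and 87.5 to 89.0. Ttr, the transthyretin gene, made up most of the last sum (79.9 to 82.1 and 77.4 to 78.5). Of the 6 choroid plexus markers 3 lay above and 1, Ttr, below without overlap, with a median difference of -0.002. Single markers of other lists also went both ways: 4 of 6 microglial markers lay above and 2 below. For astrocytes and radial glia 2 of 5 lay above and 2 below, and for neurons 2 of 6 and 1. Above and below lay 5 and 0 of 6 meningeal and fibroblast markers, and 2 and 0 of 5 of the oligodendrocyte lineage. The shares of all named genes above and below were 28.5% and 27.1%. The part of these differences in the vascular values was not tested.

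**Figure D5:**
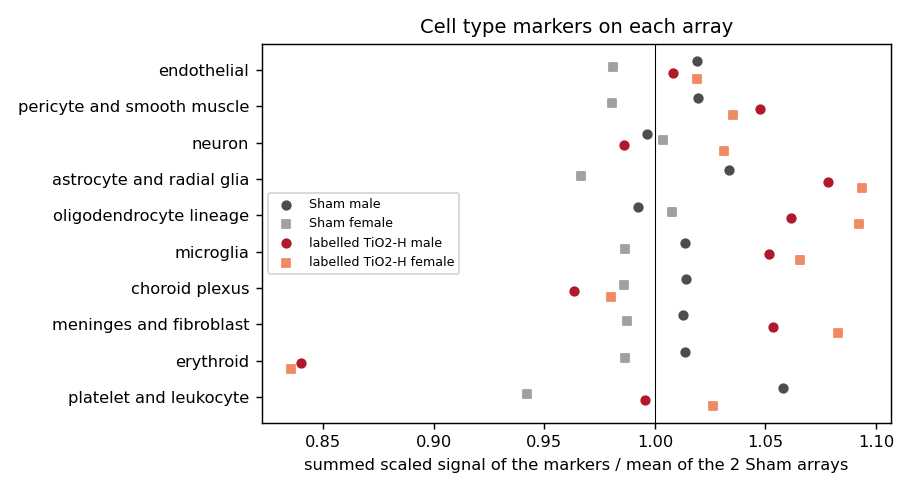
Summed scaled signal of the markers of each cell type on each array, divided by the mean of the 2 Sham arrays. Endothelial sums, here with the 1-spot Kdr probe, overlap between the exposures (31.0 to 32.1 and 31.8 to 32.1), but not with the 10-spot probe (18.0 to 18.2 and 19.1 to 20.2). Erythroid sums are lower on both TiO2-H arrays (87.9 to 88.4 against 104 to 107), and pericyte sums are higher on both (12.3 to 12.4 against 11.6 to 12.1). The sums of microglia, astrocytes and radial glia, the oligodendrocyte lineage, and meninges and fibroblasts are also higher on both TiO2-H arrays. Each sum follows its brightest probes. Single markers went both ways for microglia (4 above and 2 below without overlap) and for astrocytes and radial glia (2 above and 2 below).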

How the data were processed

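RNA pools of newborn mouse brain were measured on 4 one-color arrays (SurePrint G3 Mouse GE 8x60K), 1 per group of Sham or TiO2-H and labelled sex. The authors deposited the scanner output of Feature Extraction (version 10.10.1.1) as processed signal intensity, background-subtracted and detrended within the array, and a table that held the same intensity for all 59305 non-control spots. From the deposited intensity, the log2 of the processed signal minus the log2 of the 75th percentile over non-control spots of the array was computed. Outlier spots were removed before averaging over each probe, and 9 probes with no remaining spot on an array dropped out. Where a probe was not well above background, its value was raised to the lowest signal that was so on that array, unless its own was larger. Probes well above background on at least 1 array (35625) were fitted with limma 3.58.1 in R 4.3.3, TiO2-H against Sham without a sex term, with Benjamini-Hochberg adjustment over all of them. Each array is 1 pool, and the 2 pools of an exposure share their dams. The p-values thus measure the spread between 2 littermate pools of different sex and not that between litters. Precision is limited by there being 4 arrays. Summaries were made in Python 3.11.15 with pandas 2.3.3.

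Accessions were named through a RefSeq table of GRCm38.p6, which held 98.0% of the NM and NR accessions. The 10 genes, the lists and the markers were chosen with earlier results of these data known. Named in the text were all probes of the 10 genes, up to 3 genes per list with the largest difference among genes detected on every array and without overlap, any list gene past 1.5-fold under both labels, and sex-linked genes. Alternatives were the absence of scaling, quantile normalization, another percentile, normexp with an offset of 50, the deposited table, filters and floors, flagged spots, sex terms, the mean of the probes of a gene, and leaving out each array. Since the files held no mean signal, normexp was run on median signals.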

Additional observations from a re-analysis of the deposited data

How the results depend on the processing

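No probe on the array passed an adjusted p of 0.05 under any alternative. Without scaling, 7 probes of the 10 genes lay above and 0 below without overlap, beside 53.1% and 8.72% of all probes. The median of the genes was then 0.18 and that of all probes 0.12, and Mfsd2a (0.010) and the brightest Kdr probe (0.023) changed sign. At an unadjusted p under 0.05 (limma) stood 3 probes without scaling: Cldn5, the 10-spot Kdr probe and Tjp1 at 0.038. The share of all probes at that p was not counted without scaling. Quantile normalization put 1 probe, that of Ocln, past 0.67-fold under the male label. With the percentile taken over probes detected on all arrays, 2 probes lay above and 2 below, beside 24.0% and 29.6% of all probes, and Slc2a1 was at -0.0015. Under normexp the median of the ligand and Wnt list was -0.0020. The mean of both Kdr probes was 0.13. The number of probes at an unadjusted p under 0.05 (limma) was 1, the 10-spot Kdr probe, instead of 2 without a filter, with sex as labelled as a term and with the TiO2-H sexes exchanged. Leaving out each array in turn, with the lone array of an exposure assumed to vary like the other two, gave counts of 1 to 2, the second being Ocln without the array labelled TiO2-H female. It gave medians of 0.013 to 0.115 for the 10 genes, differences of -0.14 to 0.16 for Slc2a1, -0.00076 to 0.19 for Pdgfrb and -0.51 to 0.081 for Ocln, and list medians of -0.00065 to 0.086 for the other endothelial genes and -0.023 to 0.059 for the mural genes, the lowest being without the array labelled TiO2-H female. The 10-spot Kdr probe ran from 0.32 to 0.46 over all alternatives, with an unadjusted p of 0.0018 to 0.030 (limma), and Cldn5 from 0.13 to 0.29, with an unadjusted p of 0.015 to 0.155 (limma). The causes of these changes were not tested, apart from the brightness of the TiO2-H arrays that scaling removes. The fits with sex as a term pair the pools by sex, as labelled or exchanged, and put Cldn5 at an unadjusted p of 0.075 and 0.097 (limma). No fit with a replicate block was made, since each group has 1 array and the labels number no replicates. Signals near background limit Ocln, Dll4 and Abcb1b. Chosen after seeing the data, the log2 difference of the summed endothelial markers was 0.02 with the 1-spot Kdr probe, 0.12 with the 10-spot probe and 0.11 without Kdr.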
